A study of Homo sapiens with 4 samples.

Results

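The comparison described here sets the 2 arrays numbered 1 against the 2 arrays numbered 2. Members were chosen by the number that ends each sample title, which gives 4 of the 4 arrays of the series, 1 miR-223 array and 1 control array under each number, so that the treatment stands equally on both sides. All 4 samples were OE33 cells, an established line grown from an esophageal adenocarcinoma and cultured with fetal bovine serum. The groups were OE33 transfected with the hsa-miR-223 precursor, number 1, OE33 transfected with a negative control precursor, number 1, the same miR-223 transfection, number 2, and the same control transfection, number 2. Every sample received 10 nM of its precursor by lipofection and was harvested 24 h later, so no untransfected cells and no second line were available. Total RNA was hybridised to Illumina HumanHT-12 v4 bead arrays, 1 array per sample. The design text speaks of biological replicate experiments, but no label states that a number marks a shared culture, extraction, labelling or hybridisation; these cannot be told apart, and with 2 arrays a side they limit every value below. Fewer cells of a kind and less RNA per cell cannot be told apart in such bulk samples either.

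Several of the genes below answer quickly to the state of a culture. Immediate early genes are transcribed within minutes of a stimulus such as serum, growth factor or handling, without new protein synthesis, and many encode transcription factors of the AP-1, KLF, NR4A and EGR families or phosphatases that switch MAP kinases off. Heat shock chaperones refold proteins and are induced through heat shock factors when proteins unfold. Interferon-stimulated genes encode antiviral proteins and are induced through complexes of STAT and IRF proteins.

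The regulatory stretches of 7 genes from the groups described below, chosen after their values were seen, are printed first, as the 250 bases before the transcription start, from RefSeq on build GRCh38.p14, 5′ to 3′ along the gene. The first pair belongs to HSPA1A, chr6:31815293-31815542 (plus strand), and HSPA1B, chr6:31827488-31827737 (plus strand), which encode the same inducible HSP70 and were both lower on the arrays numbered 1. Capitals mark GAANNTTC, a heat shock element core that reads alike on both strands.
HSPA1A: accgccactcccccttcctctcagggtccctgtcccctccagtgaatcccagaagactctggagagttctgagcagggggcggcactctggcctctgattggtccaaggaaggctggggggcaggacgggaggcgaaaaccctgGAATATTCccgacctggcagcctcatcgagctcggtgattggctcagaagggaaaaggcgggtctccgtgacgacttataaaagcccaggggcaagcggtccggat
HSPA1B: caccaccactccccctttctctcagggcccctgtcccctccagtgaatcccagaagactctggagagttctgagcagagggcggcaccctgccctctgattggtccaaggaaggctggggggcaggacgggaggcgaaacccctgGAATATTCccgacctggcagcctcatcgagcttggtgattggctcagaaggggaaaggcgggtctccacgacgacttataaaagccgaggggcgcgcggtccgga
The 2 stretches were identical at 235 of 249 aligned bases, 94.4%. The core lay at bases -106 to -99 in HSPA1A and -105 to -98 in HSPA1B, and 5.78% of 35116 RefSeq promoters hold it in the same window. Among 24 tested chaperone genes with a promoter in the table, 14 held it, 58.3%, against 5.8% of 8776 tested genes.

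The next set belongs to immediate early genes that differed in opposite directions: FOSB, chr19:45467746-45467995 (plus strand), and FOS, chr14:75278578-75278827 (plus strand), were higher on the arrays numbered 1, and DUSP1, chr5:172771196-172771445 (minus strand), was lower. Capitals mark TGACG on either strand, the shorter core of the cAMP response element.
FOSB: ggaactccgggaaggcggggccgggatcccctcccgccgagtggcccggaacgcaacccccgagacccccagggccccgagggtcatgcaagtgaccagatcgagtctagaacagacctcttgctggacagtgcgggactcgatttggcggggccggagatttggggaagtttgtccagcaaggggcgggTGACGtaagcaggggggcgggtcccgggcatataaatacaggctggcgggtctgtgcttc
FOS: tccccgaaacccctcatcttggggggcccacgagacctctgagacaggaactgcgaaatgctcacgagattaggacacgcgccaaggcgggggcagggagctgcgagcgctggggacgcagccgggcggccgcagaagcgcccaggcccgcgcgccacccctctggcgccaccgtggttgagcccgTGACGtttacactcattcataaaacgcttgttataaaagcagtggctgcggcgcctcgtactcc
DUSP1: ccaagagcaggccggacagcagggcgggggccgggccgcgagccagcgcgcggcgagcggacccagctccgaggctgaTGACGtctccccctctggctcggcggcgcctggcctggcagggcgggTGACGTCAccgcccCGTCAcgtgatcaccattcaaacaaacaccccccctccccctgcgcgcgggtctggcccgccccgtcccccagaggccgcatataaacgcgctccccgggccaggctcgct
DUSP1 alone of the 3 held the whole element TGACGTCA, which overlaps 2 of its 4 shorter cores. The shorter core is common, in 21.2% of all promoters and in 36.8% of tested genes, and 18 of 30 tested immediate early genes with a promoter had it, 60%. The whole element was found in 1.65% of promoters, in 3.62% of tested genes and in 4 of those 30 genes, 13.3%. The CArG box, bound by serum response factor, was found in 1.16% of promoters, in 1.49% of tested genes and in 3 of the 30, 10%.

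The last set belongs to IFI6, chr1:27672193-27672442 (minus strand), and IFIT1, chr10:89392373-89392622 (plus strand), interferon-stimulated genes that were lower on the arrays numbered 1. Capitals mark a core of the interferon-stimulated response element, TTTC, any 2 bases and TTTC again, on either strand.
IFI6: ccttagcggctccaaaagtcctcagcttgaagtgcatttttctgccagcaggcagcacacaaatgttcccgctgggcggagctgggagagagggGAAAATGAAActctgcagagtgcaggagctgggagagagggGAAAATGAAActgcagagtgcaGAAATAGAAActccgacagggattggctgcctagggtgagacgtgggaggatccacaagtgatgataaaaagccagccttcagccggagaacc
IFIT1: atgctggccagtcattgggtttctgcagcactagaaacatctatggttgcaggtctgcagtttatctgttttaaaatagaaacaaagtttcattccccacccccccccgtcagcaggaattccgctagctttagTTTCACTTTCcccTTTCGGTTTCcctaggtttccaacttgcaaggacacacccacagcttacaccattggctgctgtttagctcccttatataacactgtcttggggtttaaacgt
IFI6 held 3 such cores and IFIT1 held 2. This core was present in 3.02% of all promoters, in 3.36% of tested genes and in 22 of 36 tested interferon genes with a promoter, 61.1%. These are matches of letters only, counted on genes of known induction, and they say nothing of which factor acted in these cells.

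Between the numbers, more probes differed together than between the treatments. Of 18629 probes detected (p under 0.05) on 2 arrays or more, 707 (3.8%) differed by over 1.5-fold in the same direction in both pairs, that is between numbers 1 and 2 on the miR-223 arrays and again on the control arrays. Of these, 334 probes (1.79%) were higher and 373 (2%) lower on the arrays numbered 1, and 133 more passed the same fold in opposite directions. The same count for miR-223 against control, taken at both numbers, gave 325 probes (1.74%), 138 higher and 187 lower with miR-223, and 116 in opposite directions. At 2-fold the counts were 70 for the number and 21 for the treatment, and at a ratio of 5 to 4 they were 2967 and 1922. Without background correction the counts at 1.5-fold were 123 and 61, and scaling by the median in place of quantiles gave 143 higher and 838 lower for the number, with the median gene then at -0.15 log2 units.

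**Figure D1:**
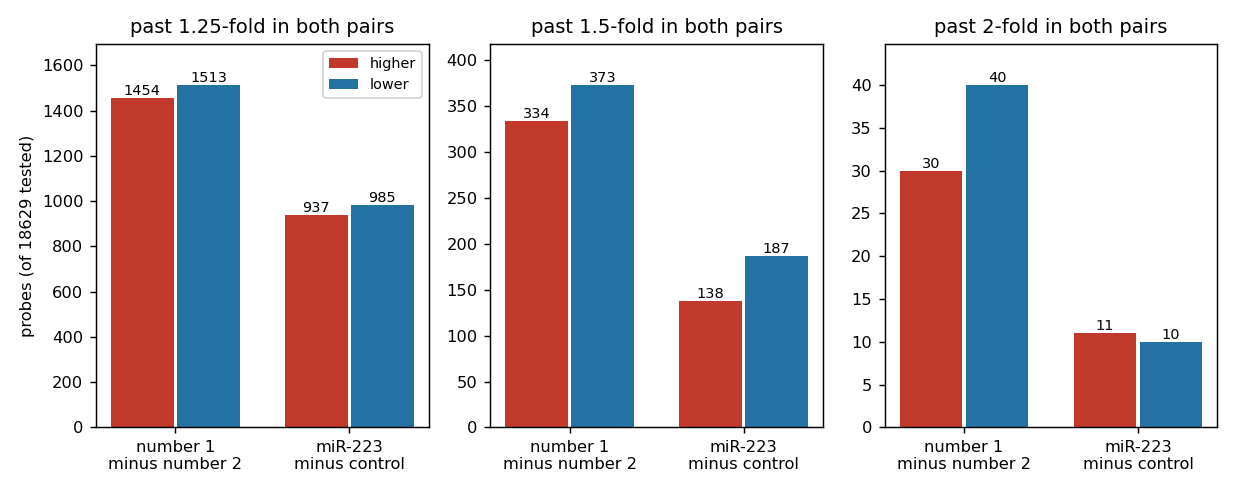
Probes past a ratio of 5 to 4, past 1.5-fold and past 2-fold in the same direction in both pairs (y axis, number of probes of 18629 tested; each panel has its own scale), for number 1 minus number 2 and for miR-223 minus control. Red bars count higher and blue bars lower probes; at 1.5-fold the number gave 334 and 373, and the treatment 138 and 187.

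Other measures of breadth went the same way. The difference between the numbers, averaged over the 2 pairs, had an SD across probes of 0.341 log2 units, the treatment difference 0.285, and the part left over when both are taken out 0.236. The 2 pairs share no array, and across probes their differences correlated at 0.352 (Pearson, 18629 probes that are not independent) for the number and at 0.186 for the treatment. These 2 correlations largely follow from the SDs just given. Arrays of the same number correlated at 0.987 and 0.987 over all tested probes, arrays of the same treatment at 0.984 and 0.983, and arrays that share neither at 0.982 and 0.981. A linear model with terms for treatment and number (limma) called 1 probe (0.00537%) at an adjusted p under 0.05 for the number, DUSP1, and none for the treatment, where the lowest adjusted p was 0.379; the unadjusted p was under 0.05 for 2996 and 1928 probes. That model has 1 residual degree of freedom, and the call count turned on how its spread was modelled: with the spread allowed to follow intensity, 677 probes were called for the number and 194 for the treatment.

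The arrays themselves were close in median intensity and in bead number, and less so in mean intensity and detection. Mean raw intensity was 493 and 487 on the miR-223 and control arrays numbered 1 and 539 and 541 on those numbered 2. On both arrays numbered 2 and neither numbered 1, 454 probes were detected, against 240 the other way. These probes passed the filter through 1 number only, so the direction of their difference largely follows from the filter. DUSP1, HSPA1L, ARID5B and EGR2, described below, are among the 454. Median raw intensity was 114.5 and 115.3 on the miR-223 and control arrays numbered 1 and 117.2 and 118.4 on those numbered 2, and 18353 and 18036 against 18599 and 18916 probes had a detection p under 0.05. All arrays had a median of 22 beads per probe. The SD of the bead number was 5.16 and 5.17 on the arrays numbered 1 against 5.93 and 6.08 on those numbered 2, and bead numbers correlated at 0.155 between the arrays numbered 1, 0.376 between those numbered 2 and 0.20 to 0.21 across numbers. The ratio of bead numbers correlated at 0.0473 with the number difference across probes. All 5 epithelial markers were detected on all arrays, with summed intensities of 63593 to 68732 on the arrays numbered 1 and 62534 to 63401 on those numbered 2, and no fibroblast or endothelial marker of 9 and 5 passed the filter. Of 8 leukocyte markers 5 passed, among them CD14, CD79A, CD68 and LYZ. Epithelial tumour cells can express CD68 and LYZ. CD14 was detected on all arrays and differed by -0.58 log2 units (limma adjusted p = 0.224), and CD79A was detected on 1 array of each number. Summed intensities over all 18 leukocyte probes were 1251 to 1323 on the arrays numbered 1 and 1370 to 1472 on those numbered 2. PTPRC and CD3E did not pass, and of 4 erythroid markers HBA2 alone passed.

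By gene, with the brightest probe standing for each of 14334 genes, 218 (1.52%) were higher and 303 (2.11%) lower on the arrays numbered 1 past 1.5-fold in both pairs. Where a gene past that rule had a second tested probe, the second probe had the same sign in 86 of 99 genes, and its difference was a median of 0.589 times that of the first. Over all 3388 genes with more than 1 tested probe, 65.2% of second probes had the same sign. The genes just inside the rule were TMEM170A, BCL7B and DIPK1A, whose smaller pair difference was 0.585, 0.585 and 0.586 log2 units, and just outside were SETDB2, CRYBG2 and MTUS1 at 0.585, 0.583 and 0.583.

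**Figure D2:**
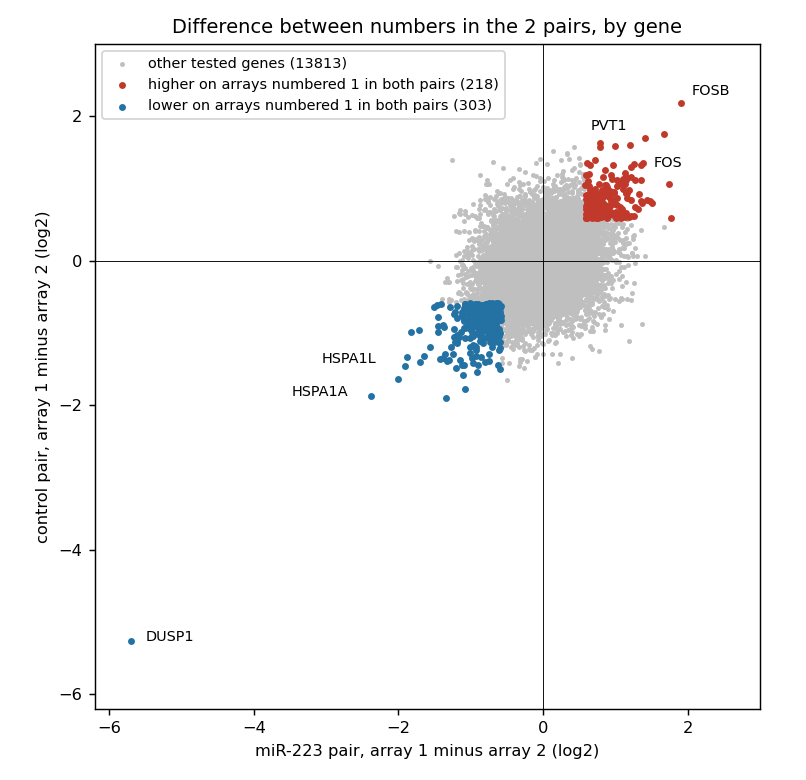
Difference between numbers 1 and 2 in log2 units on the miR-223 arrays (x axis) and on the control arrays (y axis), 1 point per tested gene. Red marks the 218 genes higher and blue the 303 genes lower on the arrays numbered 1 past 1.5-fold in both pairs; DUSP1 lies far from all others at -5.71 and -5.27.

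Of the lists examined, immediate early genes had the most members higher on the arrays numbered 1. Of 44 listed genes 40 were tested, and 11 (27.5%) were higher and 2 (5%) lower past 1.5-fold in both pairs, against 1.52% and 2.11% of all tested genes. Their median difference was 0.25 log2 units, 0.34 in the miR-223 pair and 0.27 in the control pair, against -0.01 over all genes, and 0.29 with DUSP1 left out. With the spread modelled on intensity, 16 were called higher and 1 lower, where 1.63% of all genes were called higher and 2.02% lower. For miR-223 against control, none was higher and 1 was lower past 1.5-fold at both numbers.

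FOS proteins are subunits of AP-1, and FOSB had the largest positive difference of the list. FOSB, an early and short-lived member, had normalized log2 intensities of 10.93 (miR-223) and 11.08 (control) on the arrays numbered 1, against 9.02 and 8.89 on those numbered 2. Both arrays numbered 1 lay above both numbered 2, by 2.05 log2 units (SE 0.19, 4.14-fold, limma adjusted p = 0.0704). FOS, the founding member of the family, read 11.51 and 11.71 against 10.13 and 10.37 log2 units, a difference of 1.36 (SE 0.18, adjusted p = 0.115). FOSL1, whose protein FRA-1 is a longer-lived FOS subunit, read 9.60 and 10.44 log2 units on the miR-223 and control arrays numbered 1 and 8.46 and 9.28 on those numbered 2. Within each treatment FOSL1 was higher on number 1, by 1.15 and 1.16 log2 units, while miR-223 arrays lay below control arrays under both numbers. JUN and JUNB, which pair with FOS proteins, differed by 0.36 (adjusted p = 0.374) and 0.15 log2 units (adjusted p = 0.736).

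Zinc finger and nuclear receptor factors of the list gave like values. KLF6, a growth-restraining zinc finger factor, read 12.67 and 12.46 log2 units on the arrays numbered 1 against 11.31 and 11.14 on those numbered 2, and its other 2 probes differed by 0.95 and 1.46. NR4A2, an orphan nuclear receptor, read 8.03 and 7.90 against 6.82 and 6.29 log2 units, and its other probe differed by 1.57. For both genes the numbers did not overlap, but both were among the genes chosen for a large repeated difference. KLF2 and KLF4 differed by 1.06 and 0.76 log2 units and ATF3, a stress-induced repressor of the CREB family, by 0.79 (adjusted p 0.123 for KLF2, 0.163 for KLF4 and 0.163 for ATF3). HBEGF, a ligand of the EGF receptor, differed by 1.20, and CCN1, a matrix protein and YAP target, by 0.79 log2 units. EGR1, a zinc finger factor that responds promptly to serum, went the other way at 11.19 and 11.38 against 11.45 and 11.61 log2 units, a difference of -0.25 (adjusted p = 0.555). EGR2 was not detected on the arrays numbered 1 and was at least 1.45-fold lower there on the background-corrected values (measured means 4.94 and 5.63 log2 units for numbers 1 and 2, adjusted p = 0.184). Without background correction NR4A2 differed by 0.87 and HBEGF by 0.68 log2 units.

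The phosphatases that close the MAP kinase pathway did not differ in 1 direction. DUSP1, a nuclear phosphatase of p38, JNK and ERK, had raw intensities of 85.3 and 84.0 on the miR-223 and control arrays numbered 1, against 1154.4 and 895.6 on those numbered 2. It was not detected on either array numbered 1 and was detected on both numbered 2, so it passed the filter only through those numbered 2. Taking the lowest detected intensity as its bound on number 1, it was at least 25.5-fold lower there on the background-corrected values. Measured means were 4.28 against 9.76 log2 units (limma adjusted p = 0.000193). That bound equals 4.67 log2 units and covers the corrected values only. Without background correction the measured difference of DUSP1 was -3.50 log2 units, against -5.49 with it. It was the single call of the main model and its single tested probe had 22 and 21 beads on the arrays numbered 1 against 33 and 35 on those numbered 2; 3.17% of tested probes had a bead ratio as low or lower. Whether the bead number bears on the value was not tested. DUSP4, another nuclear MAP kinase phosphatase, was higher at 7.93 and 7.50 against 6.71 and 6.21 log2 units, a difference of 1.26 (SE 0.18, adjusted p = 0.119), or 0.75 without background correction. DUSP6, specific to ERK, differed by 0.29 log2 units and its second probe by 0.0086, and ETV5, a transcription factor that follows ERK activity, by -0.71 (adjusted p = 0.172), or -0.41 without background correction.

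**Figure D3:**
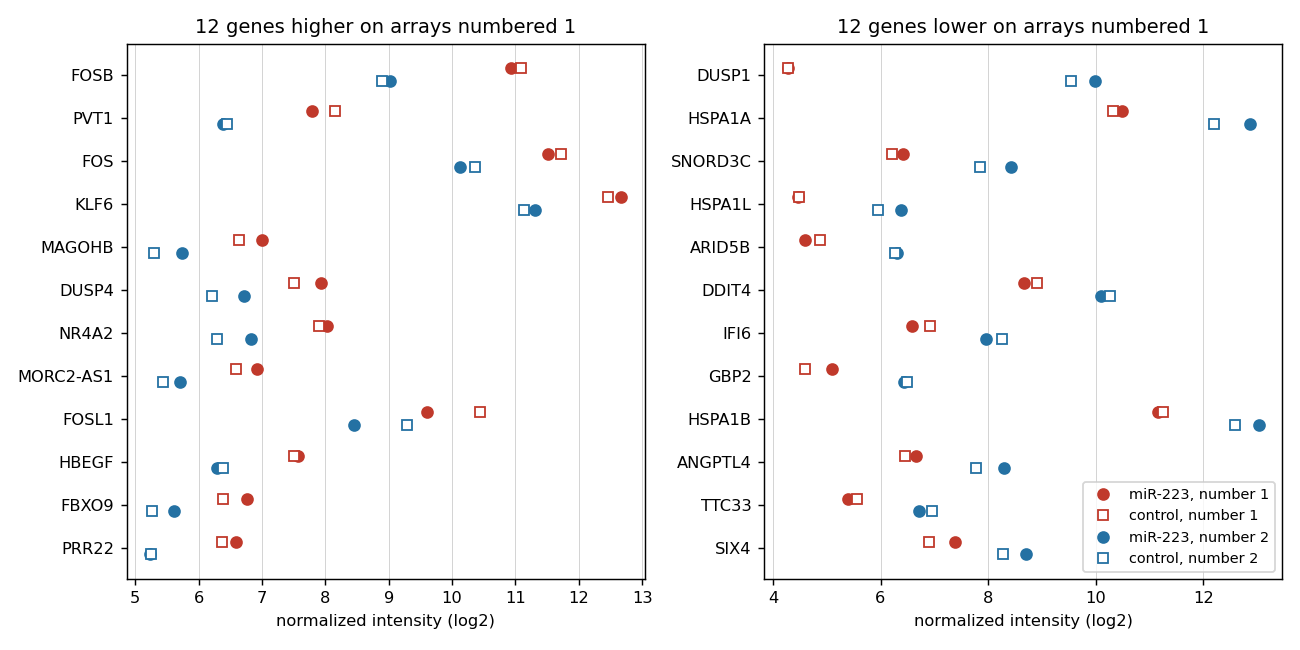
Normalized log2 intensity (x axis) of the 12 genes with the largest repeated difference in each direction, 1 point per array. Filled circles are miR-223 and open squares control, red number 1 and blue number 2. In each of the 24 genes both red points lie on the same side of both blue points. The genes were chosen for a large difference of the same sign in both pairs, so this separation largely follows from the choice.

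Several heat shock chaperones were lower on the arrays numbered 1. Of 26 tested genes, 6 (23.1%) were lower and none higher past 1.5-fold in both pairs, against 2.11% and 1.52% of all tested genes. The list median was -0.30 log2 units. With the spread modelled on intensity 9 were called lower and none higher, where 2.02% of all genes were called lower and 1.63% higher. No member passed 1.5-fold for the treatment at both numbers. HSPA1A read 10.50 and 10.32 log2 units on the arrays numbered 1, against 12.88 and 12.20 on those numbered 2, a difference of -2.13 (SE 0.20, 4.37-fold, adjusted p = 0.0704). HSPA1B read 11.16 and 11.26 against 13.04 and 12.59 log2 units, 3.04-fold lower. These genes encode the same protein and their transcripts are nearly alike, so how far each probe reads the other copy is uncertain; the stretches printed above show the likeness before the start site.

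HSPA1L, the HSP70 relative beside them on chromosome 6, was not detected on the arrays numbered 1. It is 1 of the 6 past the fold, but it passed the filter only through the arrays numbered 2. It was at least 2.10-fold lower there on the background-corrected values, with measured means of 4.48 and 6.17 log2 units for numbers 1 and 2 (adjusted p = 0.115). DNAJB4, a J-domain partner of HSP70, differed by -1.41 log2 units and its second probe by -1.44. It was detected on 1 of the 2 arrays numbered 1, and without background correction DNAJB4 and HSPA1L differed by -0.57 and -0.67 log2 units. HSPH1, the nucleotide exchange factor HSP105, read 11.69 and 11.77 against 12.38 and 12.77 log2 units, and HSPA4L of the same HSP110 family differed by -0.74. HSPA8, a constitutive HSP70, differed by -0.51 log2 units (adjusted p = 0.271), DNAJB1 and BAG3, both HSP70 partners, by -0.45 and -0.40, and HSP90AA1 and HSP90AB1 by -0.13 and -0.14. HSF1, which encodes the main heat shock factor, differed by 0.75 log2 units in the opposite direction (adjusted p = 0.184). CIRBP, a cold-inducible RNA-binding protein from the list of splicing factors, was higher at 12.07 and 12.05 against 11.37 and 11.40 log2 units. A link between CIRBP and these chaperones was not tested.

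Interferon-stimulated genes had the lowest median of the lists with 10 or more tested members, at -0.37 log2 units, with -0.45 in the miR-223 pair and -0.47 in the control pair. Of 42 tested members, 9 (21.4%) were lower and none higher past 1.5-fold in both pairs, against 2.11% and 1.52% of all tested genes. When only the sign in both pairs is asked, 31 were lower and 3 higher, where 32.3% of all tested genes were lower and 29.6% higher. With the spread modelled on intensity 12 were called lower and none higher, where 2.02% of all genes were called lower and 1.63% higher. No interferon gene of the list passed 1.5-fold for the treatment at both numbers. IFI6, a mitochondrial and endoplasmic reticulum antiviral protein, read 6.58 and 6.92 log2 units on the arrays numbered 1, against 7.96 and 8.27 on those numbered 2. Its difference was -1.36 (SE 0.18, 2.57-fold, adjusted p = 0.115), and a second probe differed by -0.17. IFIT1, which binds foreign RNA caps, read 6.19 and 7.18 against 7.58 and 8.07 log2 units, and its pair differences were -1.39 and -0.89.

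IFITM1, which blocks virus entry, differed by -0.99 log2 units in both pairs, and IFIH1, the RNA sensor MDA5, by -1.23 in the miR-223 pair and -0.73 in the control pair. EPSTI1, IFI44, IRF7, IFIT2 and IFI27 made up the rest of the 9, with differences of -0.89, -0.84, -0.83, -0.77 and -0.66 log2 units. GBP2, an interferon-induced GTPase that was not on the list, read 5.10 and 4.59 against 6.43 and 6.49 log2 units (adjusted p = 0.115). It was detected on 1 of the 2 arrays numbered 1, so no fold is given, and without background correction it differed by -0.63. On those uncorrected values IFI6, IFIT1, IFITM1, IFIH1, EPSTI1 and IRF7 differed by -0.89, -0.69, -0.59, -0.50, -0.37 and -0.51 log2 units, and the second probe of IRF7 differed by -0.16 in the main values. IRF9, a factor that carries the interferon signal, differed by -0.54 log2 units (adjusted p = 0.262). Members varied, since IFIT3 differed by -0.50 in the miR-223 pair and 0.55 in the control pair.

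**Figure D4:**
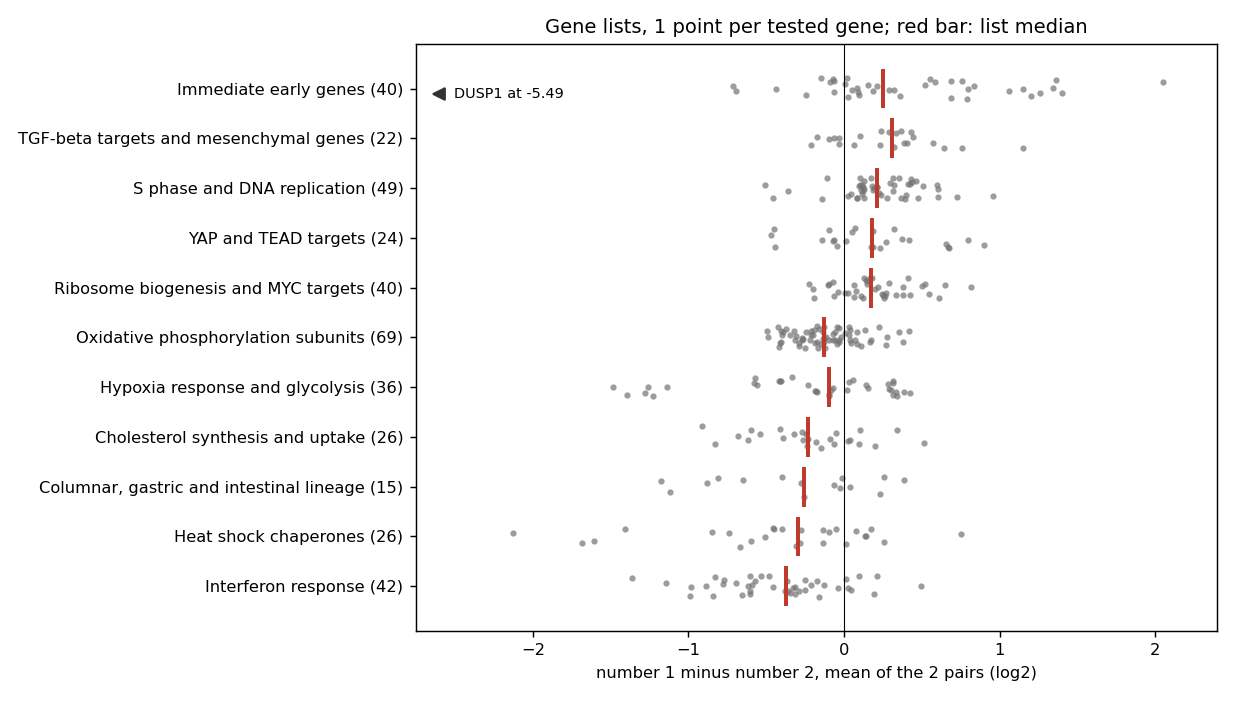
Number 1 minus number 2 in log2 units (x axis) for each tested gene of 11 lists, with the number of tested genes in brackets and the list median as a red bar. Medians run between 0.31 for the TGF-beta list and -0.37 for the interferon list, and DUSP1, at -5.49, is drawn as an arrow at the left edge.

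Genes of the hypoxia and glycolysis list were divided. Of 36 tested, 6 (16.7%) were lower and none higher past 1.5-fold in both pairs, against 2.11% and 1.52% of all tested genes. The list median of -0.09 log2 units nevertheless stood close to that of all genes. ANGPTL4, a lipoprotein lipase inhibitor, read 6.66 and 6.45 log2 units on the arrays numbered 1, against 8.31 and 7.77 on those numbered 2, although a second probe differed by only -0.27. DDIT4, an inhibitor of mTORC1 also known as REDD1, read 8.67 and 8.90 against 10.10 and 10.26 log2 units, a difference of -1.39 (SE 0.18, 2.63-fold, adjusted p = 0.115). Among isoenzymes, ENO2 differed by -1.28, PFKFB4 by -1.26 and ALDOC by -1.13, and NDRG1, a stress-response gene, by -1.23 log2 units. Without background correction ANGPTL4, ENO2 and PFKFB4 differed by -0.94, -0.65 and -0.82. Among the main glycolytic forms ENO1 differed by 0.31, GPI by 0.43, LDHA by 0.06 and PKM by -0.33 log2 units, and HIF1A and VEGFA differed by 0.31 and -0.18 (adjusted p 0.449 for ENO1, 0.356 for GPI, 0.907 for LDHA, 0.416 for PKM, 0.462 for HIF1A and 0.676 for VEGFA). Of 32 members with a promoter, 20 held ACGTG, the core of the hypoxia response element (62.5%), a sequence found in 18.5% of all promoters and in 29.8% of tested genes.

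Growth-related lists lay slightly higher on the arrays numbered 1, with few members past the fold. S phase genes had a median of 0.21 log2 units over 49 tested, 35 higher and 5 lower in both pairs, against 29.6% and 32.3% of all tested genes, and 1 past 1.5-fold. That gene was RRM2, the small subunit of ribonucleotide reductase, at 8.73 and 8.92 against 7.75 and 7.99 log2 units (1.94-fold, adjusted p = 0.143). MCM5 and MCM6, of the replicative helicase, differed by 0.60 and 0.44 log2 units, and POLE, a leading-strand polymerase, by 0.72. Genes of ribosome assembly and MYC response had a median of 0.17 over 40 tested, with WDR43, a factor of the small subunit processome, past the fold at 0.82, ODC1 at 0.65 and SRM, spermidine synthase, at 0.61 log2 units. G2 and M phase genes had a median of 0.04 over 49 tested, none past the fold in either direction.

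Targets of TGF-beta and mesenchymal genes had the highest median of the lists with 10 or more tested members, 0.31 log2 units over 22. That rank holds for the average of the pairs only. Within the miR-223 and control pairs the list medians were 0.24 and 0.24, below 0.34 and 0.27 for immediate early genes. Past 1.5-fold in both pairs, 1 of the 22 (4.5%) was higher and none lower, against 1.52% and 2.11% of all tested genes. ID1 and ID2, inhibitors of basic helix-loop-helix factors, differed by 0.65 (second probe 0.078) and 0.57, and SMAD7, an inhibitor of the pathway, by 0.44 log2 units. Among 24 tested YAP and TEAD targets 3 (12.5%) were higher and none lower past 1.5-fold, against 1.52% and 2.11% of all tested genes. The 3 were GADD45A at 0.90, CCN1 at 0.79 and NUAK2 at 0.68 log2 units (0.31 without background correction). This list's median was 0.18, 0.27 in the miR-223 pair and 0.06 in the control pair, and 0.01 with median scaling.

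Of 15 tested genes of the columnar and glandular lineage, 4 (26.7%) were lower and none higher past 1.5-fold in both pairs on the arrays numbered 1. Of all tested genes 2.11% were lower and 1.52% higher by that rule. The list median was -0.26 log2 units, and of 46 listed genes on the array these 15 passed the filter. That median is the value of MUC5AC, which was detected on 1 array of each number. Its differences were -1.17 in the miR-223 pair and 0.66 in the control pair. HNF4G passed the filter only through the arrays numbered 2. MUC1, a membrane mucin, read 6.85 and 6.72 log2 units against 7.75 and 8.17, a difference of -1.17 (SE 0.21, adjusted p = 0.123), and a second probe differed by -1.11. FOXA2, a factor of foregut endoderm, differed by -1.12, CEACAM1 by -0.88 (second probe -0.25) and TSPAN8 by -0.81, while SOX9, a progenitor factor of gut glands, differed by 0.38 log2 units (adjusted p = 0.351). Without background correction this list's median was -0.08, and MUC1, FOXA2, CEACAM1 and TSPAN8 differed by -0.75, -0.47, -0.34 and -0.30 log2 units.

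Housekeeping lists held small differences. Oxidative phosphorylation subunits had a median of -0.13 log2 units over 69 tested, 35 lower and 12 higher in both pairs, against 32.3% and 29.6% of all tested genes, and none past the fold. Cytosolic ribosomal proteins had a median of -0.04 over 77 tested, and proteasome subunits -0.02 over 35, none past the fold in either list. Cholesterol synthesis genes had a median of -0.23 over 26 tested, with MSMO1, a methylsterol oxidase, past the fold at -0.91, although its other 2 probes differed by -0.28 and 0.16; SQLE, squalene epoxidase, differed by -0.59. INSIG1, a sterol-regulated gene, differed by -1.11 log2 units in the miR-223 pair and by -0.25 in the control pair, while its other probe differed by 0.21 over both.

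The remaining genes with the largest repeated differences had varied roles. PVT1, a long noncoding RNA next to MYC on chromosome 8, read 7.79 and 8.15 log2 units on the arrays numbered 1 against 6.38 and 6.44 on those numbered 2 (2.94-fold, adjusted p = 0.115). MAGOHB, of the exon junction complex, differed by 1.30, MORC2-AS1, an antisense RNA, by 1.19, PRR22 by 1.24 and FBXO9, an F-box protein, by 1.13 log2 units. Without background correction these 4 differed by 0.57, 0.52, 0.49 and 0.47, and PVT1 by 0.95. ARID5B, a DNA-binding protein, was not detected on the arrays numbered 1 and was at least 2.29-fold lower there on the background-corrected values. TTC33 and SIX4, a homeobox factor, differed by -1.36 and -1.34 log2 units. Without background correction ARID5B and TTC33 differed by -0.58 and -0.60, and SNORD3C, named next, by -1.13. SNORD3C, a copy of the U3 small nucleolar RNA of rRNA processing, read 6.42 and 6.21 against 8.43 and 7.85 log2 units (3.54-fold lower, adjusted p = 0.087), and SNORD3D and SNORD3A differed by -1.01 and -0.85; these copies are nearly identical, so their values are uncertain as separate genes. SNORD13, another rRNA-processing RNA, read 8.99 and 8.97 against 9.90 and 9.89 log2 units. Small noncoding RNAs as a list went both ways. Of 175 tested, 6 (3.43%) were higher and 6 (3.43%) lower past 1.5-fold in both pairs, against 1.52% and 2.11% of all tested genes. The list median was 0.06 log2 units, and SCARNA13, among those higher, differed by 0.89. CCNG2, a cyclin-like gene, differed by -1.71 log2 units in the miR-223 pair and by -0.96 in the control pair. CCNG2 was detected on 1 of the 2 arrays numbered 1, its other probe differed by -0.48, and without background correction its difference was -0.51.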

How the data were processed

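Per the labels' protocols, total RNA of 4 samples was labelled with biotin and hybridised to 1 bead array each; the submitters' processing notes name GenomeStudio, BeadStudio and Partek without roles. The authors deposited, per the file headers, a non-normalized average intensity per probe with a detection p-value and a bead number, and a normalized table in log2. From the deposited intensities, background was corrected by normexp with negative control levels inferred from the detection p-values (offset 16), followed by quantile normalization and log2 (limma 3.58.1 in R 4.3.3). Of 47321 probes, the 18629 detected (p under 0.05) on 2 or more of 4 arrays were kept. limma was fitted with treatment and number as terms, and p-values were adjusted by Benjamini-Hochberg over all tested probes at 0.05. With 1 residual degree of freedom the test leans on a shared spread (prior degrees of freedom 6.37). Each difference is number 1 minus number 2, its SE is limma's, and the count rule asks for 1.5-fold (0.585 log2 units) in both pairs. The pairing of a miR-223 with a control array rests on the number in the titles; with 2 pairs it cannot be checked further than by the array correlations given above. The design text speaks of biological replicate experiments, but no label states that the numbers are separate cultures. Each number holds 1 miR-223 and 1 control array. The p-values therefore measure the spread that treatment and number leave between these arrays, which may be technical. They do not measure the spread between repeated experiments, and the number of arrays limits the precision.

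Symbols were updated through RefSeq, 27039 probes by current name and 4625 by synonym, and 15657 kept their name. The brightest probe stands for a gene. The text names the 12 genes a direction with the largest smaller pair difference past 1.5-fold and, from the lists it describes, most of the 3 a list with the largest smaller pair difference; those of the other lists are not described. Further list members, GBP2 and the genes with printed promoters were chosen after their values were seen. Members and lists were chosen with earlier results of these data known. The fits were tested on simulated data. Alternatives were other normalizations, filters, spread models and folds, and leaving out each array. A few of the genes so chosen are not reported here.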

Additional observations from a re-analysis of the deposited data

Results flagged for a closer look

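In 9 of 35 gene lists the median difference between numbers 1 and 2 had opposite signs in the miR-223 pair and in the control pair. The difference between the pairs was not tested, each pair is 1 array against 1, and most of these medians are close to 0. In log2 units, small noncoding RNAs had -0.062 in the miR-223 pair and 0.170 in the control pair. Clock genes had -0.086 in the miR-223 pair and 0.127 in the control pair, NF-kB targets and chemokines had -0.070 and 0.091, and keratins -0.130 and 0.0085, with the pairs in that order. Squamous differentiation genes had 0.197 in the miR-223 pair and -0.025 in the control pair. Growth factor receptors and ligands had 0.056 and -0.115, proteasome subunits 0.075 and -0.081, p53 targets 0.0092 and -0.091, and integrins, laminins and matrix genes 0.0011 and -0.021, again with the miR-223 pair first. Of these 9, none is among the 11 lists drawn in the plot of list members.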

How the results depend on the processing

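More probes were counted for the number than for the treatment, at 1.5-fold in both pairs or by limma, in all settings run except without control replicate 2, where limma called 1 probe for each. Calls for number and treatment were 1146 and 371 without background correction, 1206 and 402 on the authors' normalized values, 677 and 194 with a spread that follows intensity, and 662 and 188 with that model's robust option. For the number alone, calls were 4 with median scaling, 186 with detection on all 4 arrays and 5 at an adjusted p under 0.1, where the treatment had 0. Probes past 1.5-fold in both pairs numbered 123 and 61 without background correction and 122 and 61 on the authors' values, against 70 and 21 at 2-fold and 2967 and 1922 at a ratio of 5 to 4. With number as the only term, leaving out each array in turn gave 1 call for the number every time; with treatment as the only term it gave 0 to 1 calls. As a paired design the main model keeps the number as replicate block; with no replicate block the treatment had 0 calls. The cause of these changes was not tested. The intensity-trend model, added after seeing the data on other values, gave 762 and 206 calls with cyclic loess and 1468 and 201 with median scaling, 1294 of the 1468 being lower.

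Median scaling turned the sign of 11 of 35 list medians, each toward lower, and the median of all genes was then -0.15. None of the 11 lists drawn in the plot turned. That does not test their stability, because they were picked with earlier results known. Those with a negative median also could not turn under a shift toward lower values. Of 500 values of 125 genes under other normalizations 3 turned: EPCAM to -0.12 with median scaling and -0.010 with cyclic loess, and CD68 to -0.046 with median scaling. Without background correction the difference of 45 of 125 genes shrank by over 1.5 times on the log2 scale, that of DUSP1 to -3.50. Differences that grew were not counted.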
